A study of Homo sapiens with 4 samples.

Results

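Transcripts of the kinesin motor family were measured by RNA-seq in K562, a human leukaemia cell line of erythroid character. The data set holds 2 libraries from cells given 5 µM clofarabine (in 0.005% DMSO) for 3 h, called C0 and C1, and 2 from DMSO-treated cells at 3 h, called V0 and V1. Clofarabine is a purine nucleoside drug that, once phosphorylated, blocks ribonucleotide reductase and DNA synthesis. Family members were taken by symbol, as KIF followed by a number and at most letters A to C, or KIFC1, KIFC2 or KIFC3, which gave 42 of the 23615 genes in the table. They were divided by name into 12 mitotic motors and 30 others, here called transport motors.

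Kinesins are ATP-driven proteins that walk along microtubules or take their ends apart. Mitotic kinesins build the bipolar spindle, align chromosomes on it and organise the midzone where the cell divides, and many of their genes are transcribed mainly in G2 and mitosis. Transport kinesins carry vesicles, organelles and RNA, and most are made throughout the cell cycle. The division is by name only, so that the transport group also holds KIF2A, a microtubule depolymerase that acts at spindle poles too, and KIF4B, a near-identical copy of KIF4A.

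The deposited table gives its conditions as the letters C and V. C was taken to be clofarabine and V vehicle, and all directions below turn around if that is wrong. Library totals ran from 8370550 fragments in V0 to 23888755 in C1. Separate cultures are not stated in the labels, and the p-values therefore speak of the spread between these libraries, which may be technical. The 7 K562 markers examined, among them GATA1, KLF1 and the globin genes HBG1 and HBE1, were all present, with a summed level of 22590 to 26891 CPM (fragments scaled to a common library size by TMM) per library. GATA1, an erythroid transcription factor, was itself called lower, at 227 and 222 CPM in V0 and V1 and at 179.7 and 197 in C0 and C1 (change of −0.25 on the log2 scale, edgeR adjusted p = 0.0445). With DESeq2 none of the 7 markers was called, GATA1 included. The erythroid factor KLF1 had a change of −0.19 and was not called (edgeR adjusted p = 0.179). The part of GATA1 and KLF1 in the kinesin results was not tested. Of 10 markers of other lineages, 4 reached 1 CPM in a library, led by EPCAM at 70.8 to 75.2 CPM, and MS4A1 had no fragment in any library. The summed level of that list was 93.0 to 94.1 CPM in clofarabine and 93.8 to 97.7 CPM in DMSO.

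After 3 h of clofarabine, 7 of the 12 mitotic motors were called lower, none was called higher, and each of the 12 lay below 0 on the log2 scale. Of all 11761 genes tested, 1.03% were called lower and 1.54% higher (2.57% in either direction) by edgeR's quasi-likelihood test at a Benjamini-Hochberg adjusted p under 0.05. Among the 7, KIF20A fell by 61.6% (log2 fold change −1.38), the most, and KIF11 fell by 21.8% (−0.36), the least. The median log2 fold change was −0.46 over the mitotic motors, −0.051 over the 19 transport motors that could be tested and 0.0020 over all tested genes. None of the 19 was called in either direction by edgeR, and 2 had an unadjusted p under 0.05 in edgeR. With DESeq2, 0 were called and 0 had an unadjusted p under 0.05. As edgeR called 2.57% of all tested genes, an absence of calls among 19 genes does not set them apart. In these bulk libraries a smaller share of cells in mitosis and less transcript per cell cannot be told apart.

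**Figure D1:**
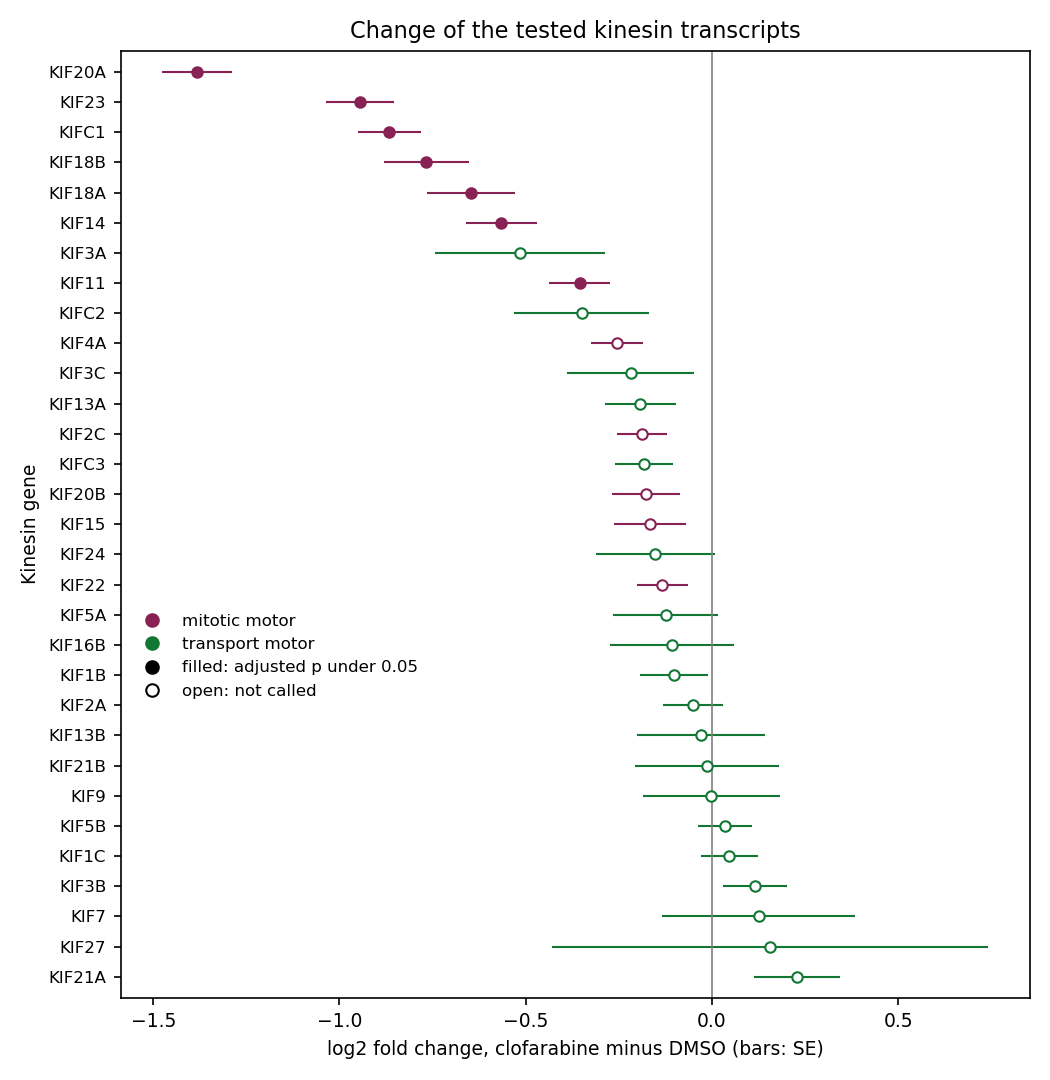
Log2 fold change (clofarabine minus DMSO, x axis; bars are the standard error) of each tested kinesin gene (y axis), with mitotic motors in purple and transport motors in green. The 7 filled points, the genes with an adjusted p under 0.05, are all mitotic motors, and all 12 mitotic motors lie left of 0.

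Promoter stretches are shown here for the 7 motors that fell, for KIF22 as a mitotic motor that was not called and for KIF3B as a transport motor with a positive log2 fold change. Each runs from 100 bases before to 12 after the annotated transcript start, 5′ to 3′ on the gene's strand (RefSeq, build GRCh38.p14). Capitals mark letters of a CCAAT box (CCAAT, or ATTGG on the other strand) or of a cell cycle homology region, CHR (TTTGAA or TTCGAA, either strand). The CHR is the element at which DREAM and MuvB complexes are known to bind in genes of G2 and mitosis, and NF-Y binds the CCAAT box.
KIF20A: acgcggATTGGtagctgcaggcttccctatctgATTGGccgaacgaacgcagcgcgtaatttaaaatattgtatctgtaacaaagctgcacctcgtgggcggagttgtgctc
KIF23: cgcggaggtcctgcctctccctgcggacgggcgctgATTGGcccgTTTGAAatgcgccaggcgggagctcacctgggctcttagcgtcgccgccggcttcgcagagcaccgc
KIFC1: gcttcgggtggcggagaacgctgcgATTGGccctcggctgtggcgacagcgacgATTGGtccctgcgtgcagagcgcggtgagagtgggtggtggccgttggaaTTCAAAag
KIF18B: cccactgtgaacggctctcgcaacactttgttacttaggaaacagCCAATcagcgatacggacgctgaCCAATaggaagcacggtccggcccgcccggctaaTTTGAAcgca
KIF18A: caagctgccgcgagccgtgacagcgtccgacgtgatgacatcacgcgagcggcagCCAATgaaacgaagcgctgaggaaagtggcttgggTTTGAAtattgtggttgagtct
KIF14: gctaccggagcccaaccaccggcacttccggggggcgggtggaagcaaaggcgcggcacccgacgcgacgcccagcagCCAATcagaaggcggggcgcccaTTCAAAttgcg
KIF11: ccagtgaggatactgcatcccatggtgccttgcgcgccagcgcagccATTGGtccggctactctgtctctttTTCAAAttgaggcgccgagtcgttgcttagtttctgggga
KIF22: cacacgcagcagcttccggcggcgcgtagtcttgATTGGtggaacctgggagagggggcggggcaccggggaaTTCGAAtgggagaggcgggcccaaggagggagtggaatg
KIF3B: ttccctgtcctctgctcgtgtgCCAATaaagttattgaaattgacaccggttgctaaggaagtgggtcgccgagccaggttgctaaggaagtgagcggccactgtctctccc

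These stretches lie at chr5:138179012-138179123 (plus strand) for KIF20A, chr15:69414249-69414360 (plus) for KIF23, chr6:33391723-33391834 (plus) for KIFC1 and chr17:44947762-44947873 (minus) for KIF18B. KIF18A is at chr11:28108145-28108256 (minus), KIF14 at chr1:200620740-200620851 (minus), KIF11 at chr10:92593030-92593141 (plus), KIF22 at chr16:29790651-29790762 (plus) and KIF3B at chr20:32277551-32277662 (plus). Over the whole window, from 250 bases before to 50 after the start, CHR letters were present in 10 of 12 mitotic motors, in 3 of 22 transport motors with a window and in 19.5% of all 27305 genes with one. CCAAT letters were present in 10 of the 12, in 8 of the 22 and in 39.7% of all genes. Both were present in 9 of the 12 (75.0%), 3 of the 22 (13.6%) and 7.85% of all genes. The 3 are KIF5B, the kinesin-13 KIF24, and KIF4B, the copy of KIF4A, which had too few fragments to be tested. Among single windows of all genes, 16.4% held CHR letters, 34.6% CCAAT letters and 6.38% both.

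Within the mitotic group, both motifs were found in 6 of the 7 motors that fell and in 3 of the 5 that were not called, which are KIF4A, KIF20B and KIF22. KIF20A, the largest fall, had CCAAT letters at 94 and 67 bases before the start and no CHR letters in its window, and KIF2C had neither motif. KIF15 had CHR letters at position −35 and no CCAAT letters. E2F letters (TTTGGCGC, TTTCCCGC or TTTGGCGG, either strand) were in 2 of the 12, KIF11 and KIF15, in 2 of the 22 and in 3.50% of all genes. In KIF15 these end next to the CHR letters without sharing a base. A match to these letters is a description of the sequence and not a measured binding site.

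**Figure D2:**
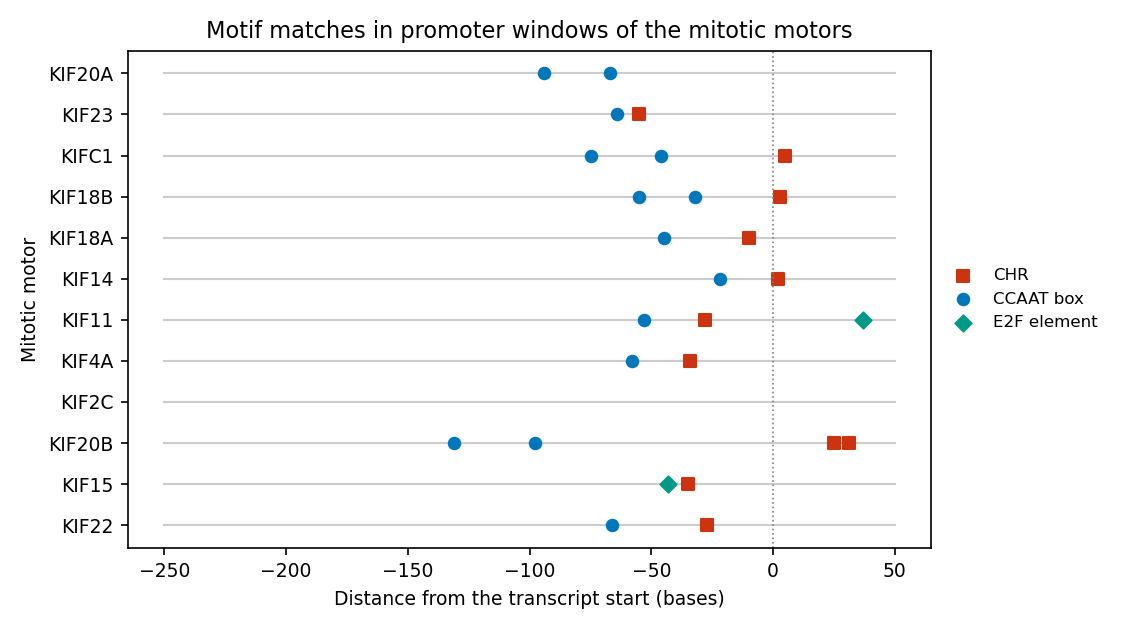
Positions of CHR (red squares), CCAAT (blue circles) and E2F letters (green diamonds) relative to the annotated transcript start (x axis, bases; grey lines span the window searched) for the 12 mitotic motors (y axis, largest fall at the top). CCAAT letters lie between 22 and 131 bases before the start, and the CHR letters lie between position −55 and position 31; for KIF22, which has a second window, the first is drawn.

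The kinesins of the midzone and of cytokinesis showed the widest spread within the mitotic group. KIF20A, which brings the chromosomal passenger complex to the central spindle, stood at 82.0 CPM in V0 and 82.2 in V1, against 28.4 in C0 and 34.0 in C1. Its log2 fold change was −1.38 (SE 0.094, edgeR adjusted p = 1.06e-08). KIF23, the motor subunit of centralspindlin, was at 62.9 and 65.8 CPM in V0 and V1 and at 35.2 and 32.0 in C0 and C1. It fell by 48.1% (log2 fold change −0.95, SE 0.092, edgeR adjusted p = 8.46e-07). For both genes the higher clofarabine library stood well below the lower DMSO library.

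KIF14, which recruits citron kinase to the midbody, was at 95.5 and 85.2 CPM in V0 and V1 and at 67.9 and 54.8 in C0 and C1. The log2 fold change was −0.57 (SE 0.095, edgeR adjusted p = 0.00106). KIF4A, a chromokinesin that with PRC1 sets the length of midzone microtubule overlaps, had 149.8 and 143 CPM in V0 and V1 and 120 and 125 in C0 and C1. Both clofarabine libraries lay below both DMSO libraries, as in 21.3% of all tested genes. The log2 fold change of −0.25 (SE 0.070) just missed the threshold (edgeR adjusted p = 0.0535). KIF4A was called lower in 6 of the 12 alternative settings. Each of these settings also called more genes over all genes tested than the 302 of the main fit. Examples are 307 with DESeq2 size factors in edgeR (adjusted p = 0.0494 for KIF4A) and 796 with the replicate block. KIF20B, a second kinesin-6 that acts in late cytokinesis, was at 53.9 and 49.3 CPM in V0 and V1 and at 45.3 and 45.8 in C0 and C1 (log2 fold change −0.18, SE 0.091, edgeR adjusted p = 0.393).

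KIF20A and KIF20B belong to one subfamily, and their levels changed by different amounts. The ratio of KIF20A to KIF20B in FPKM (fragments scaled by transcript length and library size) was 2.84 in V0 and 3.11 in V1, against 1.17 in C0 and 1.39 in C1. The kinesin-8 pair KIF18B and KIF18A had FPKM ratios of 1.00 and 0.837 in V0 and V1 and of 0.827 and 0.845 in C0 and C1, so that C1 lay between the DMSO libraries. These ratios are given as a description, and the differences between genes were not tested.

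**Figure D3:**
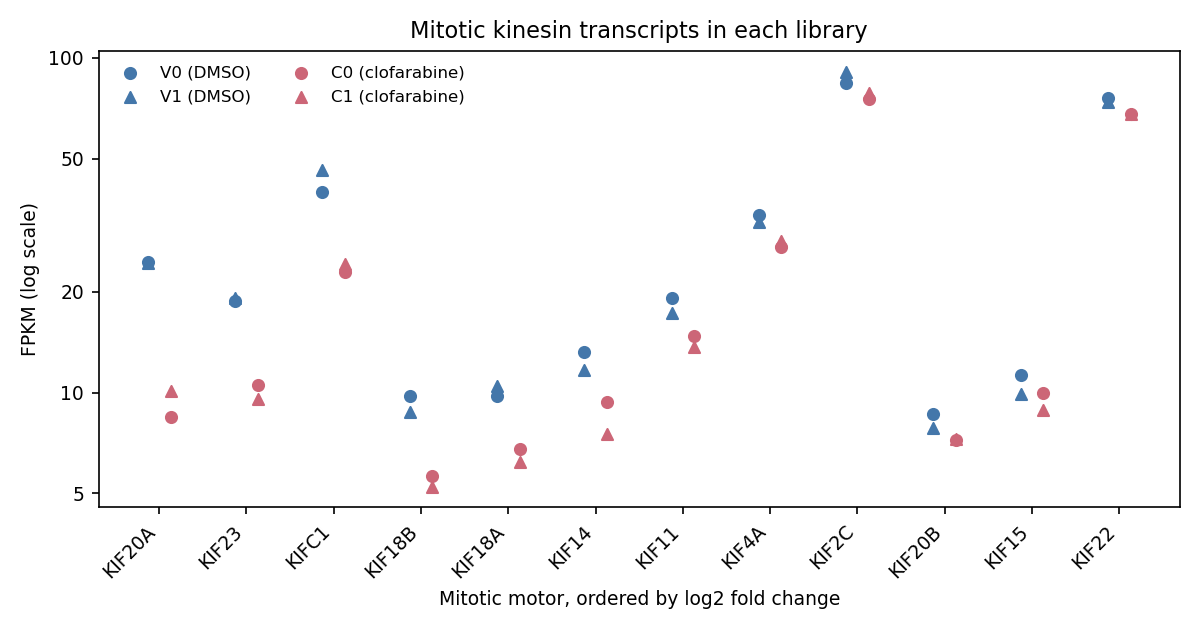
FPKM (y axis, log scale) of each mitotic motor (x axis, ordered by log2 fold change) in the 2 DMSO libraries (blue) and the 2 clofarabine libraries (red), with circles for libraries numbered 0 and triangles for those numbered 1. Every motor except KIF15 has both red points below both blue points, and the gap is widest at KIF20A, from 24.4 and 24.5 in DMSO to 8.47 and 10.1 in clofarabine.

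Among the motors that build the bipolar spindle, KIFC1 and KIF11 fell and KIF15 was not called. KIFC1, a minus-end-directed kinesin-14 that bundles spindle microtubules and clusters extra centrosomes, was at 102 CPM in V0 and 119 in V1, against 58.8 in C0 and 62.5 in C1. KIFC1 fell by 45.1%, or by 0.87 on the log2 scale (SE 0.085, edgeR adjusted p = 8.46e-07). KIF11, the kinesin-5 Eg5 that slides antiparallel microtubules apart, was at 95.6 and 86.8 CPM in V0 and V1 and at 73.9 and 68.8 in C0 and C1. The smallest of the falls, it had a log2 fold change of −0.36 (SE 0.081; adjusted p = 0.0178 in edgeR). The KIF11 call was lost without C1 (edgeR adjusted p = 0.0539), without V0 (edgeR adjusted p = 0.171) and with DESeq2 (adjusted p = 0.0533). KIF15, a kinesin-12 that can hold the spindle open when KIF11 is inhibited, was at 53.5 and 47.2 CPM in V0 and V1 and at 47.3 and 42.4 in C0 and C1. Its C0 value lay above its V1 value, and its change of −0.17 on the log2 scale was not called (SE 0.096, edgeR adjusted p = 0.476).

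Of the kinesins that position chromosomes and trim microtubule ends, both kinesin-8 genes fell. KIF18A, which damps the movements of chromosomes at the metaphase plate, was at 32.6 and 35.1 CPM in V0 and V1 and at 22.8 and 20.8 in C0 and C1 (log2 fold change −0.65, SE 0.12, edgeR adjusted p = 0.00245). KIF18B, which shortens astral microtubules, was at 40.4 and 36.5 CPM in V0 and V1 and at 23.5 and 21.7 in C0 and C1. Its log2 fold change was −0.77 (SE 0.11, edgeR adjusted p = 0.000301). Neither gene's groups overlapped.

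KIF2C and KIF22, the most abundant kinesins in these cells per transcript length, had small negative changes that were not called. KIF2C encodes MCAK, a kinesin-13 that removes wrongly attached kinetochore microtubules and works together with KIF18B. It was at 231 and 251 CPM in V0 and V1 and at 208 and 216 in C0 and C1 (log2 fold change −0.19, SE 0.067, edgeR adjusted p = 0.170). KIF22, a chromokinesin that pushes chromosome arms outward, was at 149 and 145 CPM in V0 and V1 and at 134.2 and 134 in C0 and C1, with a change of −0.13 on the log2 scale (SE 0.068, edgeR adjusted p = 0.392). The 2 clofarabine libraries lay below both DMSO libraries in KIF2C and KIF22 as well. That held for 11 of the 12 mitotic motors, against 21.3% of all tested genes.

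The call of KIF18A, KIF14 and KIF11 was lost on both FPKM scales, log2(FPKM + 1) and log2(FPKM + 0.1), where limma called 3 and 4 mitotic motors. Over all tested genes limma called 56 and 72 on these scales in either direction, against 302 with edgeR. KIF18B was lost on the first of these only (adjusted p = 0.0526). Exons of another annotated gene lie on the opposite strand over exons of 5 mitotic motors, namely CDC23 over KIF20A, METTL15 over KIF18A, and genes with clone-based names over KIF23, KIF22 and KIF2C, and no source used here states whether counting used strand. CDC23 had a log2 fold change of 0.13 (SE 0.076) and METTL15 one of 0.11 (SE 0.14), neither called (edgeR adjusted p = 0.483 and 0.784). The clone-named genes were not examined, and how fragments of these overlaps were assigned was not tested.

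In DMSO the family was led by KIF2C at 87.7 ± 4.75 FPKM (SD, n = 2), KIF22 at 74.7 ± 1.49 and KIFC1 at 43.0 ± 4.70. KIF5B at 37.3 ± 0.378 and KIFC3 at 34.9 ± 2.69 were the highest transport motors, followed by the mitotic KIF4A at 33.2 ± 1.17, which did not separate from KIFC3 in the DMSO libraries. KIF20A came next at 24.5 ± 0.0308 FPKM, the seventh of 42 in DMSO. In clofarabine it stood at 9.29 ± 1.16 FPKM, rank 12, while KIFC1 went from rank 3 to rank 6. Over the mitotic motors the rank of the DMSO FPKM and the log2 fold change had a Spearman rho of 0.042 (12 genes that share the same libraries, given as a description).

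Summed over the 12 mitotic motors, FPKM was 348.8 in V0 and 353 in V1, against 266.5 in C0 and 267 in C1. Over the 30 transport motors the sum was 157 and 155 FPKM in V0 and V1 and 153 and 149 in C0 and C1. Both sums were lower in both clofarabine libraries, by 83.9 FPKM between the group means for the mitotic motors and by 5.20 FPKM for the transport motors. Mitotic motors made up 69.2 ± 0.331% of the family's summed FPKM in DMSO and 63.9 ± 0.515% in clofarabine (SD, n = 2).

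**Figure D4:**
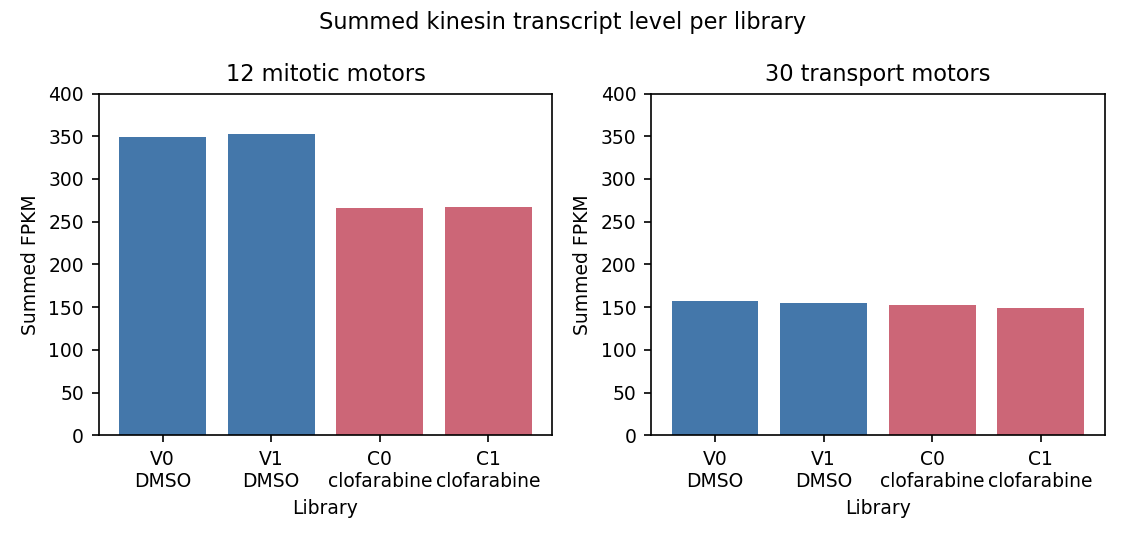
Summed FPKM (y axis, from 0) of the 12 mitotic motors (left) and the 30 transport motors (right) in each library (x axis; DMSO in blue, clofarabine in red). The mitotic sum drops from about 351 to 267 FPKM between the group means, and the transport sums lie between 149 and 157 in the 4 libraries.

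Of the 30 transport motors, 19 had enough fragments to be tested and 11 did not. KIF12, KIF25, KIF26A, KIF2B, KIF5C and KIF6 had no fragment in any library, where a floor of 3 fragments per library applies and covers counting error only. KIF17, KIF19, KIF26B, KIF4B and KIF1A had at most 20 fragments in a library. Among the tested members, 13 had a negative and 6 a positive log2 fold change, where 49.4% of all tested genes were negative. Both clofarabine libraries lay below both DMSO libraries in 6 of them and above in 1, against 21.3% and 22.0% of all tested genes.

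Of the 6 transport motors most abundant per transcript length in DMSO none was called. KIFC3 and KIF13A had changes of −0.18 and −0.19 on the log2 scale, and the other 4 lay between −0.051 and 0.12. In CPM both clofarabine libraries lay below both DMSO libraries in KIFC3 and KIF13A, as in 21.3% of all tested genes. In FPKM the groups of KIF13A overlapped, with 8.09 in C0 and 7.76 in V1. The change of KIF13A was −0.0935 with log2(FPKM + 1) and −0.1045 with log2(FPKM + 0.1). KIF5B, the ubiquitous heavy chain of kinesin-1, was at 219 and 217 CPM in V0 and V1 and at 240.5 and 207 in C0 and C1, so that the clofarabine libraries enclosed the DMSO libraries (log2 fold change 0.036, SE 0.073, edgeR adjusted p = 0.896). KIF1C, a kinesin-3 carrier of vesicles, had a log2 fold change of 0.047 (SE 0.076), and KIF2A one of −0.051 (SE 0.080). KIF5B turned to −0.075 without C0, KIF1C to −0.0040 without C1 and KIF2A to 0.035 without V0. KIF3B, a kinesin-2 motor of intraflagellar transport, was at 51.2 and 52.9 CPM in V0 and V1 and at 54.8 and 57.9 in C0 and C1. It was the transport motor whose clofarabine libraries both lay higher (log2 fold change 0.12, SE 0.086, edgeR adjusted p = 0.617).

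The smallest unadjusted p-values among transport motors belonged to KIFC3, KIF3A, KIF13A, KIF21A and KIFC2. KIFC3, a minus-end-directed kinesin-14, was at 108 and 121 CPM in V0 and V1 and at 95.7 and 106 in C0 and C1 (log2 fold change −0.18, SE 0.079, edgeR adjusted p = 0.289). KIF3A, the partner of KIF3B, was at 11.2 and 6.96 CPM in V0 and V1 and at 6.48 and 6.06 in C0 and C1. The change of −0.52 on the log2 scale (SE 0.23, edgeR adjusted p = 0.301) was −0.16 without V0 and −0.85 without V1. KIF13A, a kinesin-3 of endosomal traffic, had a log2 fold change of −0.19 (SE 0.095), KIFC2 one of −0.35 (SE 0.18) and KIF21A, a kinesin-4 that restrains microtubule growth, one of 0.23 (SE 0.12). That of KIF21A was 0.039 without V1 and 0.41 without V0.

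Transport motors were on the whole less precisely measured, with a median standard error of 0.16 on the log2 scale against 0.091 for the mitotic motors. The 8 transport motors with at least 5 FPKM in DMSO, a level chosen after the values were seen, had standard errors of 0.073 to 0.12. None of these 8 was called by edgeR, 1 had an unadjusted p under 0.05 in edgeR, and DESeq2 called 0. With 2.57% of all tested genes called by edgeR, an absence of calls among 8 genes does not set them apart either.

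Some subfamilies hold motors of both kinds. In kinesin-14 KIFC1 fell, while KIFC3 and KIFC2 were not called. The FPKM ratio of KIFC1 to KIFC3 was 1.20 and 1.26 in V0 and V1 and 0.783 and 0.754 in C0 and C1. In kinesin-13 the FPKM ratio of KIF2C to KIF2A was 3.67 and 4.48 in V0 and V1 and 3.57 and 3.82 in C0 and C1, so that the groups overlapped. In kinesin-3 KIF14 was the 1 called member of 6 tested. None of the 3 tested members of kinesin-13 was called by edgeR or DESeq2, with 1, KIF2C, at an unadjusted p under 0.05. As edgeR called 2.57% of all tested genes, an absence of calls among 3 genes does not set them apart.

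Regulators and partners of the mitotic motors were examined as a list of 18 genes, of which 17 could be tested. The list was chosen with earlier results of these data known, so its counts are a description and no independent support for the motors. Of the 17, 11 were called lower, none higher and 6 were not called, against 1.03% of all tested genes called lower. All 17 had a negative log2 fold change, with a median of −0.41, where 49.4% of all tested genes were negative. DESeq2 called 9 of the 17, against 168 of 10393 genes in either direction. AURKA, a kinase of centrosome maturation and spindle assembly, was at 220 and 213 CPM in V0 and V1 and at 117 and 115 in C0 and C1 (log2 fold change −0.90, edgeR adjusted p = 2.88e-08). PLK1, a kinase that docks on KIF20A at the midzone, fell by 0.77 on the log2 scale (SE 0.068, edgeR adjusted p = 3.11e-07). RACGAP1, the partner of KIF23 in centralspindlin, was at 164 and 163 CPM in V0 and V1 and at 104 and 106 in C0 and C1 (log2 fold change −0.64, edgeR adjusted p = 3.54e-06).

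CENPE, the kinetochore motor of kinesin-7 whose symbol falls outside the family rule, was also in that list and is named here after its values were seen. It was at 45.8 and 43.2 CPM in V0 and V1 and at 31.1 and 29.6 in C0 and C1, with a change of −0.55 on the log2 scale (SE 0.10, edgeR adjusted p = 0.00245). Both clofarabine libraries lay below both DMSO libraries for CENPE, as in 21.3% of all tested genes.

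The cargo side of the system was given by light chains and adaptors of transport kinesins and by cytoplasmic dynein and dynactin, the minus-end-directed counterpart. Of 14 tested light chains and adaptors none was called by edgeR or DESeq2, and the median log2 fold change was 0.0088. With DESeq2 0 had an unadjusted p under 0.05, and with edgeR 1 had. That gene was MAPK8IP3, a kinesin-1 adaptor, at 16.0 and 16.5 CPM in V0 and V1 and at 11.8 and 13.2 in C0 and C1 (log2 fold change −0.37, SE 0.15, edgeR adjusted p = 0.244). None of 21 tested dynein and dynactin genes was called by edgeR or DESeq2, and the median log2 fold change was 0.044. An unadjusted p under 0.05 was found for 5 with edgeR and for 0 with DESeq2. Over all tested genes edgeR called 2.57%, so that an absence of calls among 14 or 21 genes does not set them apart. The share of all tested genes with an unadjusted p under 0.05 was not counted. NDE1, a dynein regulator, had the smallest p of the 21, with a change of −0.27 on the log2 scale (SE 0.12, edgeR adjusted p = 0.312). The others of the 5 were DCTN2 at −0.15, and DYNLL1, DYNLL2 and DCTN6 with positive changes of 0.14, 0.16 and 0.19, named after their values were seen. Of the 21 genes, 14 had positive and 7 negative changes. Both clofarabine libraries lay above both DMSO libraries in 8 of them and below in 3, against 22.0% and 21.3% of all tested genes.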

How the data were processed

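The submitters' processing notes name cutadapt 1.5, TopHat2 2.0.13, Cuffdiff 2.2.1 and build hg19. No source used here names the annotation. The deposited table holds the authors' estimated counts of fragments per gene and library. Scaled fragments (a signal, 1 factor per library applied to the counts) and FPKM stand beside them, per the file headers. Kinesin counts were whole in all libraries, and other estimated counts were rounded.

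Of 23615 genes, 11761 passed filterByExpr (minimum count 10) and were tested with edgeR 4.0.16 (quasi-likelihood, TMM, R 4.3.3), group as the only term, p-values adjusted over all of them. Standard errors are the log2 fold change over the square root of F. Data were simulated for 11761 genes with the same dispersion for every gene and 50 genes at each change. Recovered were 88% at a log2 fold change of −1, 64% at −0.5, 80% at 0.5 and 86% at 1. Genes that vary more than this setting are not covered by these shares. Alternatives were DESeq2 1.42.0 and its size factors, library size only, no filter, limma 3.58.1 on FPKM, a replicate block, an offset for transcript length (loess span 0.3, length implied by scaled fragments over FPKM) and leaving out each library. Libraries differed beyond sampling noise, so none were combined. The chi-square statistic over its degrees of freedom was 6.97 between C0 and C1, 2.78 between V0 and V1 and 4.18 between C0 and V0. By this statistic C0 differed more from C1 than from V0. The pairs also differ in depth, so their values cannot be ranked against each other. Which library is which labelled replicate is not given.

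Members, lists, motifs and the naming rule were chosen with earlier results of these data known. Named were all mitotic motors, and of the transport motors the called genes, the 5 of smallest p and the 6 of highest DMSO FPKM. Of each partner list up to 3 called genes per direction were named, or the gene of smallest p. Promoter windows matched 34 of 42 kinesins by symbol, without KIF13B, KIF19, KIF21B, KIF26B, KIF27, KIF5A, KIFC2 and KIFC3. Gene overlaps are from GENCODE 29. A marker of the K562 list is not reported here.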

Additional observations from a re-analysis of the deposited data

How the results depend on the processing

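All 12 mitotic motors kept a negative log2 fold change in each of the 12 alternative settings. The number called lower was 3 with limma on log2(FPKM + 1) and 4 on log2(FPKM + 0.1), 6 with DESeq2, and 6 to 7 when 1 library was left out. Over all genes, the calls lower numbered 121 with edgeR, 37 and 45 with limma on these 2 FPKM scales and 80 with DESeq2. The cause of the smaller counts was not tested. No motor was called higher, and no transport motor was called, in any setting. The mitotic median was −0.56 to −0.36 with 1 library left out, the value of −0.36 being that without C1. The transport median was −0.087 with library size only, −0.034 with the length offset and −0.075 to −0.055 with 1 library left out. With 1 library left out, KIF1C ranged from −0.0040 (without C1) to 0.088, KIF2A from −0.15 to 0.035 (without V0) and KIF5B from −0.075 (without C0) to 0.14. The replicate number of the table as a block gave 9 mitotic motors called lower, with KIF4A and KIF2C added, and moved the count over all genes from 302 to 796. The labels do not state that equal numbers mark a shared culture or day, so the numbers were not taken as pairs. Same-numbered libraries deviated from their group means with a correlation of 0.034 over the tested genes. With 2 libraries per group and counting noise in every gene, this value cannot decide whether they were paired. Of the 30 transport motors, 11 had too few fragments to test, 6 of them with none in any library.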
